A study of Mus musculus with 30 samples.

Results

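The 10 genes described here mark blood vessels or drive their growth: Pecam1, Cdh5, Kdr, Flt1, Vwf, Tek, Tie1, Vegfa, and the apelin pair Apln and Aplnr. They were chosen by symbol, and all 10 were found among the 22609 genes counted in each of 30 RNA-seq libraries of mouse dorsal root ganglia (DRG, the clusters of sensory neuron cell bodies beside the spinal cord) and hind paw. The animals were C57BL/6J mice of 10 to 12 weeks. In each tissue, females received prolactin (PRL), females received vehicle (Veh), males received prolactin and males received vehicle, with 3 libraries in each group, and a further 3 female libraries per tissue carried the label PRL_Sh, whose last part the labels do not explain. Prolactin is a pituitary hormone, and the protocol gives 1 µg of it injected into the sole of the hind paw, by a single injection or daily over 12 days, without assigning libraries to either schedule. No allele or transgene is named for any group. The labels do not say whether the 3 libraries of a group are separate animals or whether DRG and paw came from the same mouse, so p-values measure the spread between these libraries, which may be technical.

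Of the 24 libraries depleted of rRNA, those of DRG held 8.99 to 13.3 M reads in genes and those of paw 6.87 to 13.5 M. PRL_Sh libraries, made with a kit that selects mRNA, were deeper, at 21.96 to 26.5 M for DRG and 21.8 to 23.2 M for paw. Scn10a, whose channel is made by pain-sensing neurons, had at most 1.73 CPM (counts scaled to a fixed total of reads in genes) in paw and 872.9 to 1275 in DRG, and Krt10, a keratin of the epidermis, had 14181 to 28389 in paw and at most 40.7 in DRG, so each library carried its labelled tissue's marker. Male paw Veh replicate 2 stood apart, with 13.6% of its reads in genes against up to 26.2% in the other rRNA-depleted paw libraries.

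Endothelial cells line every vessel. Their growth is driven by VEGF-A, the product of Vegfa, which signals mainly through the receptor Kdr, while Flt1 binds the same ligand tightly and largely acts as a trap for it. Angiopoietins act through the receptor Tek, and Tie1, a receptor without a ligand of its own that is firmly known, modifies Tek signalling. Apelin, the product of Apln, is a peptide released mainly by the leading cells of growing vessels, and its receptor, encoded by Aplnr, is found on venous and sprouting endothelium. In DRG, capillaries around the neuron cell bodies are more permeable than those of the brain, and in skin, vessels open and grow during injury and inflammation.

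Promoter sequence is shown for the receptors Kdr, Flt1 and Tek, since in the paw the VEGF receptors were called higher with prolactin and Tek was not. Promoters of 6 of the 10 genes were present in the RefSeq table used (GRCm38.p6), and Aplnr was not among them. Each run below holds the 250 bases before the annotated start, 5′ to 3′ along the gene's strand, with GGAAG or its reverse complement CTTCC, the core bound by ETS-family factors of endothelium, in capitals. Kdr lies on the minus strand of chromosome 5 and its window is chr5:75978456-75978705. Flt1 lies on the same strand of the same chromosome, with its window at chr5:147726012-147726261. Tek lies on the plus strand of chromosome 4, and its window is chr4:94739039-94739288.
Kdr: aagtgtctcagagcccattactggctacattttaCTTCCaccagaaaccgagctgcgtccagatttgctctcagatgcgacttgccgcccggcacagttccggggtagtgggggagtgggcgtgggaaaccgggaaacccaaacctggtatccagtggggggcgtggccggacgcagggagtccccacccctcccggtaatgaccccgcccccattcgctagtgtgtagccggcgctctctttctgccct
Flt1: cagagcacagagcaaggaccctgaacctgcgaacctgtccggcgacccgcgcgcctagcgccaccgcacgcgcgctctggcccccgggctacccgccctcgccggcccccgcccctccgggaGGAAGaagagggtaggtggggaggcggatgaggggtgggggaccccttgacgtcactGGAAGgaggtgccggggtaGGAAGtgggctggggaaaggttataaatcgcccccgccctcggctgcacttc
Tek: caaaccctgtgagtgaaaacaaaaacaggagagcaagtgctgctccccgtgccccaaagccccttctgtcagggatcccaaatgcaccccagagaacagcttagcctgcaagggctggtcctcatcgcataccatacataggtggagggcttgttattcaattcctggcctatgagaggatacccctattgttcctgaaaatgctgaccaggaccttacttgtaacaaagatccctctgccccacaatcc
The core gave 1 match in the Kdr window, 3 in the Flt1 window and 0 in the Tek window. In the windows of the other 3 genes with a promoter in the table it gave 6 matches for Tie1, 1 for each of the Vegfa windows and 3 for Apln. Whether the number of matches bears on the calls was not tested. The core is short, and 64.1% of 32851 promoters of the same 250 bases held at least 1 match, counting both strands. The letters TTCNNNGAA, the site of STAT5, the factor that acts downstream of the prolactin receptor, stood at 0 places in each of these 3 windows, and 7.02% of all promoters held it. A match describes the letters only.

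Within vehicle animals, expressed per kilobase of exon so that genes can be compared, Cdh5 and Vegfa stood highest in DRG and the apelin pair lowest. Female Veh DRG had 15.2 ± 2.87 CPM per kb of Cdh5 and 14.1 ± 0.937 of Vegfa, and male Veh DRG had 13.1 ± 1.96 and 14.6 ± 0.798 (SD, n = 3 each), so the order of these genes was not separated by their spread. Vwf and Pecam1 followed, at 8.34 ± 0.187 and 8.33 ± 0.562 CPM per kb in female Veh DRG. Flt1, Kdr, Tek and Tie1 lay between 3.27 and 4.21 in the same libraries. Aplnr, at 0.837 ± 0.146 CPM per kb, and Apln, at 0.424 ± 0.0666, came last. In female Veh paw the order was led by Vegfa at 20.05 ± 3.26 and Pecam1 at 19.6 ± 0.628, which did not differ beyond their spread, and ended with Apln at 2.53 ± 0.941 and Aplnr at 2.32 ± 0.792, which did not either.

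In vehicle animals 7 of the 10 genes were higher in paw than in DRG and 1 was lower, in a fit over all 24 rRNA-depleted libraries with both sexes averaged, where 43.2% of 15949 genes were higher, 42.3% lower and 85.4% either. The differences of the 7 were 2.30 ± 0.28 on the log2 scale (SE) for Apln, 1.66 ± 0.24 for Aplnr, 1.44 ± 0.07 for Pecam1, 1.11 ± 0.10 for Tek, 0.62 ± 0.10 for Vegfa, 0.61 ± 0.11 for Tie1 and 0.48 ± 0.09 for Kdr. Flt1 was lower in paw, with a difference of -0.44 ± 0.08. The highest adjusted p among these 8 was 6.38e-05 (edgeR quasi-likelihood test, Benjamini-Hochberg over all genes). For Cdh5 the difference was -0.09 ± 0.13 (adjusted p = 0.537) and for Vwf -0.11 ± 0.10 (adjusted p = 0.299), so these were not separated. Library totals differ between tissues in what they hold, and in bulk tissue fewer cells of a type and less RNA per cell cannot be told apart, here and in every comparison that follows.

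In DRG, prolactin was followed by higher Kdr and Aplnr and by small differences in the rest. With the effect averaged over both sexes, 2 of the 10 genes were called higher and 0 lower, where 2.14% of 14705 genes tested were called higher, 1.47% lower and 3.6% in either direction. All 10 log2 changes were above 0, with a median of 0.17 against 0.00 over all genes tested. By sex, 1 of 10 was called in females (0.292% of genes higher, 0.653% either way) and 0 in males (0.286% higher), where Kdr and Aplnr were the 2 with an unadjusted p below 0.05, and Kdr was the 1 called by DESeq2.

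**Figure D1:**
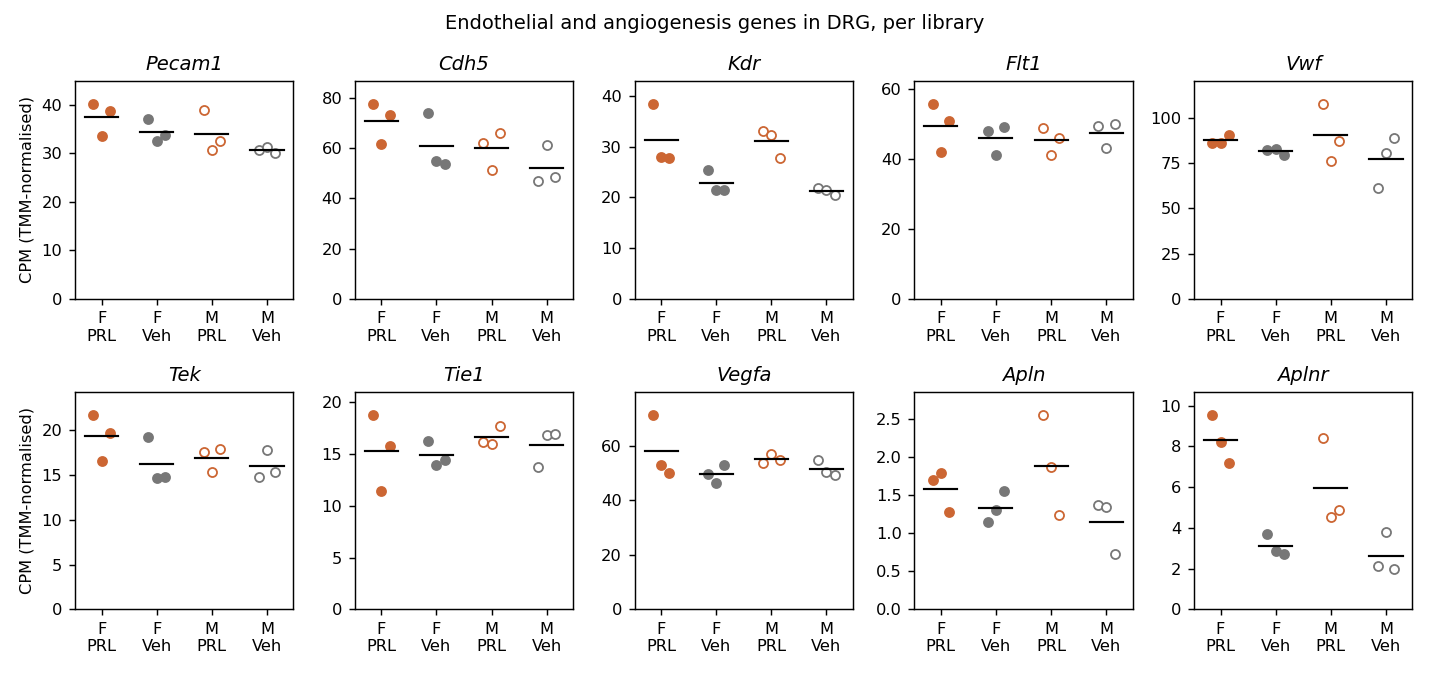
Level of each of the 10 genes in every rRNA-depleted DRG library, in CPM after TMM scaling, with female (F, filled) and male (M, open) PRL beside Veh libraries; bars are means of 3 libraries. The PRL libraries of Kdr and Aplnr lie above the Veh libraries in both sexes, whereas for most other genes the points of PRL and Veh overlap.

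Kdr, the main signalling receptor for VEGF-A, had 38.4, 27.9 and 27.9 CPM (TMM-scaled) in female PRL DRG, against 25.4, 21.4 and 21.5 in female Veh DRG. In male DRG it had 33.1, 32.3 and 27.7 CPM with PRL, against 21.8, 21.4 and 20.5 with Veh. All 6 PRL libraries lay above all 6 Veh libraries. The share of all genes separated in this way was not counted, here or for Aplnr in DRG and Vwf in paw below. Over both sexes Kdr rose by 0.50 ± 0.09 on the log2 scale (1.42-fold, 95% interval 0.31 to 0.69, adjusted p = 0.0087, edgeR). With the mean log2 CPM of the skeletal muscle genes as a covariate this call was lost, at 0.44 (adjusted p = 0.0644). These muscle genes had a median log2 change of 2.22 between the same DRG groups. Within each sex the change was of like size but missed the threshold, at 0.46 ± 0.12 in females (adjusted p = 0.162) and 0.54 ± 0.13 in males (adjusted p = 0.0801), and female minus male came to -0.08 ± 0.18 (adjusted p = 0.993).

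The other receptors and the ligand gave smaller values. Flt1, the trap for VEGF-A, had 49.5 ± 6.93 CPM in female PRL DRG and 46.1 ± 4.24 in female Veh DRG, and 45.4 ± 3.94 in male PRL DRG and 47.5 ± 3.73 in male Veh DRG (SD, n = 3 each). Its change over both sexes was 0.02 ± 0.08 with a 95% interval of -0.15 to 0.18, which does not reach the size seen for Kdr. Tek changed by 0.17 ± 0.09 (adjusted p = 0.331) and Tie1 by 0.06 ± 0.11 (adjusted p = 0.817). Vegfa changed by 0.16 ± 0.08 (adjusted p = 0.248), with 71.3, 53.0 and 50.0 CPM in female PRL DRG against 49.6, 46.5 and 53.1 in female Veh DRG, groups that overlap.

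Among the structural genes, Vwf, the adhesion protein that endothelial cells store and release for platelets, had 86.3, 86.0 and 90.8 CPM in female PRL DRG, against 82.5, 82.7 and 79.4 in female Veh DRG. These female groups do not overlap, but the difference is small, and in males 107, 76.3 and 87.4 CPM with PRL stood against 61.3, 80.8 and 89.0 with Veh. Vwf changed by 0.17 ± 0.09 over both sexes (adjusted p = 0.306). Pecam1, an adhesion protein of endothelial junctions that platelets and leukocytes also carry, changed by 0.13 ± 0.07 (adjusted p = 0.28), and Cdh5, the cadherin of endothelial junctions, by 0.21 ± 0.10 (adjusted p = 0.256). The PRL libraries of 3 of the 10 genes in female DRG and 2 in male DRG lay wholly above the Veh libraries, where 15.5% of genes in female and 19.3% in male DRG had groups that do not overlap in either direction.

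In paw, prolactin was followed by higher levels of 7 of the 10 genes, by 1.19-fold to 1.62-fold, with Vwf in front. Tek was not called, with a log2 change of -0.01 and a 95% interval of -0.24 to 0.22. The call of Tie1 held in 3 of the 12 fits that each left out a library, and that of Aplnr in 1. Over both sexes 7 of the 10 genes were called higher and 0 lower (4 to 8 when each library was left out in turn), where 14.9% of 14721 genes were called higher, 10% lower and 24.9% in either direction. The log2 changes were above 0 for 9 of the 10 and had a median of 0.35, against 0.01 over all genes tested. By sex, 1 of 10 was called higher in females (6.54% of genes, with 1.01% lower and 7.55% either way) and 2 in males (12.3%), and female minus male gave 0 calls among the 10 (0.00679% of genes called, 0 of the 10 at an unadjusted p under 0.05, 0 by DESeq2).

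**Figure D2:**
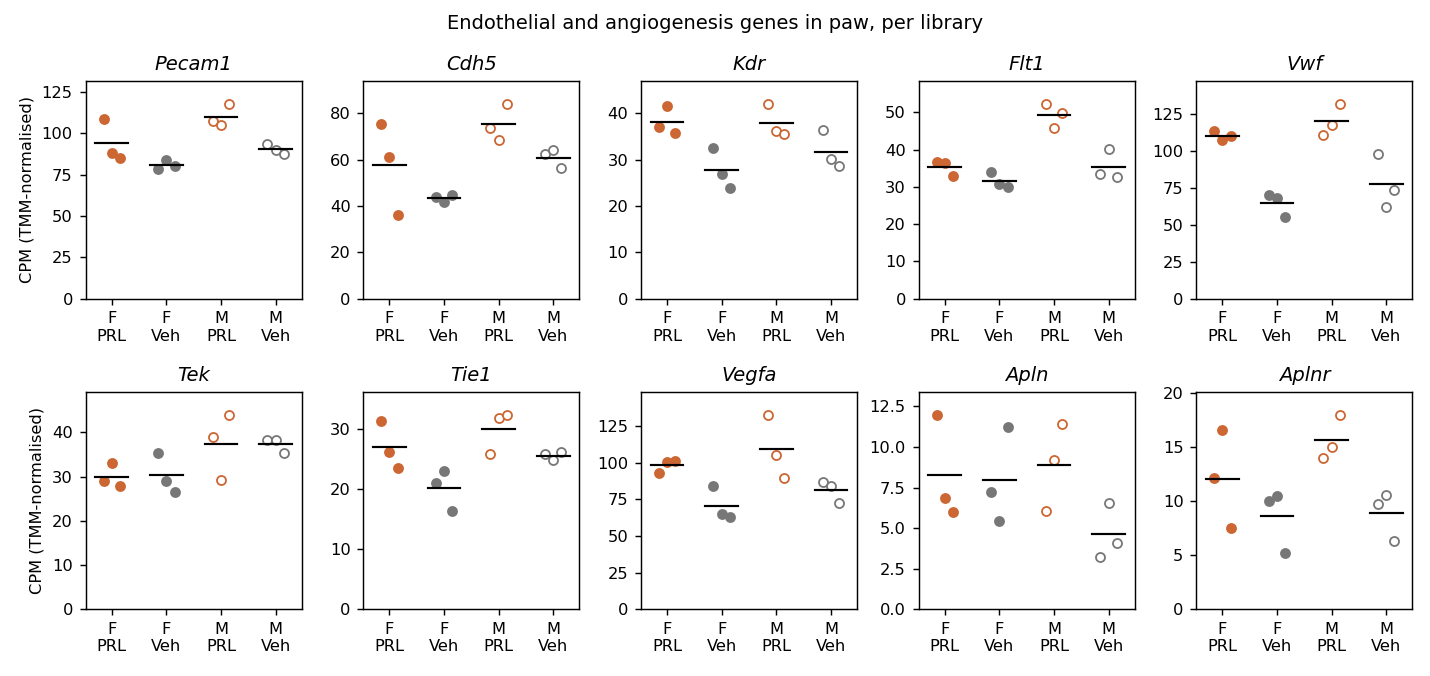
Level of each of the 10 genes in every rRNA-depleted paw library, in CPM after TMM scaling, drawn with the same symbols as for DRG; bars are means of 3 libraries. Vwf with PRL lies at 107 to 132 CPM, above every Veh library at 55.6 to 98.3 CPM, while Tek and Apln overlap in both sexes.

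Vwf had 114, 107 and 110.3 CPM in female PRL paw, against 70.1, 68.1 and 55.6 in female Veh paw. In male paw it had 111, 118 and 132 CPM with PRL, against 98.3, 62.2 and 73.8 with Veh. The PRL libraries of both sexes lay above all Veh libraries. Vwf rose by 0.77 ± 0.15 in females (adjusted p = 0.00817), by 0.62 ± 0.15 in males (adjusted p = 0.0124) and by 0.70 ± 0.11 over both sexes (1.62-fold, adjusted p = 0.000596). Without Male paw PRL replicate 3 the male call was lost, at 0.55 (adjusted p = 0.0541).

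The ligand Vegfa had 92.8, 100.5 and 101 CPM in female PRL paw, against 83.8, 65.0 and 63.1 in female Veh paw. In male paw the values were 132, 105 and 89.6 with PRL, against 86.6, 84.0 and 72.7 with Veh. Neither sex's groups overlap. Vegfa rose by 0.45 ± 0.10 over both sexes (1.37-fold, adjusted p = 0.00836), while in females (0.47, adjusted p = 0.0813) and in males (0.43, adjusted p = 0.0561) the test was missed.

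Of the VEGF receptors, Flt1 had 52.2, 45.8 and 49.9 CPM in male PRL paw, against 33.5, 40.1 and 32.8 in male Veh paw, groups that do not overlap. In female paw, 36.8, 36.3 and 33.0 CPM with PRL stood against 33.9, 30.7 and 30.1 with Veh, and these overlap. Flt1 rose in males by 0.48 ± 0.10 (adjusted p = 0.00691), gave 0.16 ± 0.10 in females (adjusted p = 0.414) and rose over both sexes by 0.32 ± 0.07 (adjusted p = 0.00738). The difference between the sexes, -0.32 ± 0.15 for female minus male, was not called (adjusted p = 0.385). Kdr gave the opposite order of separation: its female groups did not overlap, with 37.0, 41.6 and 35.8 CPM with PRL against 32.5, 27.0 and 23.9 with Veh, and its male groups did, with 42.0, 36.2 and 35.5 against 36.5, 30.1 and 28.7. Kdr rose by 0.35 ± 0.10 over both sexes (adjusted p = 0.0193), a call lost without Male paw Veh replicate 3 (0.32, adjusted p = 0.0515), and female minus male was 0.20 ± 0.19 (adjusted p = 0.641).

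The angiopoietin receptor Tek was not called. It had 29.9 ± 2.73 CPM in female PRL paw and 30.3 ± 4.46 in female Veh paw, and 37.4 ± 7.50 in male PRL paw and 37.3 ± 1.69 in male Veh paw (SD, n = 3 each). The change over both sexes was -0.01 ± 0.11, with a 95% interval of -0.24 to 0.22. Its partner Tie1 had 31.3, 26.1 and 23.6 CPM in female PRL paw, against 20.98, 22.9 and 16.4 in female Veh paw, and in male paw 25.9, 31.8 and 32.3 against 25.8, 24.8 and 26.1. Tie1 rose by 0.33 ± 0.10 over both sexes (adjusted p = 0.0385), but the call held in 3 of 12 fits that left out a library, with 0.28 and an adjusted p of 0.0986 at the weakest, without Male paw PRL replicate 2. It was lost without Female paw PRL replicates 1 or 2, Female paw Veh replicates 1 or 3, Male paw PRL replicates 2 or 3, or any Male paw Veh replicate.

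Pecam1 had 109, 88.3 and 85.2 CPM in female PRL paw, against 78.6, 83.7 and 80.5 in female Veh paw. In male paw the values were 108, 105 and 118 with PRL, against 93.5, 90.2 and 87.4 with Veh, and in neither sex do the groups overlap. Pecam1 rose by 0.25 ± 0.07 over both sexes (1.19-fold, adjusted p = 0.0188), and missed the threshold without Male paw PRL replicate 3 (0.23, adjusted p = 0.0531) and without Male paw Veh replicate 2 (0.23, adjusted p = 0.0504). Cdh5 had 75.2, 61.1 and 36.1 CPM in female PRL paw, where replicate 3 lay below all female Veh values of 43.8, 41.9 and 44.5. In male paw Cdh5 had 73.5, 68.2 and 83.8 CPM with PRL against 62.2, 63.9 and 56.5 with Veh. Over both sexes Cdh5 gave 0.36 ± 0.14 (adjusted p = 0.0865), and 0.48 (adjusted p = 0.00107) without Female paw PRL replicate 3. The PRL libraries of 5 of the 10 genes in female paw and 6 in male paw lay wholly above the Veh libraries, where 24.5% and 41.5% of genes had groups that do not overlap in either direction.

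In the apelin pair, the lowest of the set per kilobase, the receptor gene was called higher with prolactin over both sexes in paw and DRG and the ligand gene in neither tissue, and the difference between the genes was not tested. Aplnr had 9.53, 8.20 and 7.20 CPM in female PRL DRG, against 3.72, 2.84 and 2.73 in female Veh DRG, from 68 to 92 and 28 to 39 reads per library. In male DRG it had 8.42, 4.55 and 4.88 CPM with PRL, against 2.12, 3.82 and 1.97 with Veh. All 6 PRL libraries lay above all 6 Veh libraries. Aplnr rose by 1.31 ± 0.20 over both sexes (2.47-fold, 95% interval 0.86 to 1.75, adjusted p = 0.00386).

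In females alone Aplnr rose by 1.42 ± 0.28 in DRG (adjusted p = 0.04), a call that was lost without PRL replicate 1 (1.32, adjusted p = 0.163), PRL replicate 2 (1.43, 0.144), Veh replicate 2 (1.36, 0.219) or Veh replicate 3 (1.34, 0.172). In males the change was 1.19 ± 0.29 (adjusted p = 0.0982), and female minus male was 0.24 ± 0.41 (adjusted p = 0.993). For the ligand, Apln, counts in DRG were low, at 12 to 23 reads in PRL libraries and 7 to 18 in Veh libraries. Female PRL DRG had 1.70, 1.78 and 1.27 CPM of Apln, against 1.14, 1.30 and 1.56 in female Veh DRG, and male PRL DRG had 2.55, 1.86 and 1.24 against 1.36, 1.35 and 0.726 in male Veh DRG. The groups overlap in both sexes, and the change of 0.47 ± 0.24 over both sexes (adjusted p = 0.272) carries a 95% interval of -0.04 to 0.99, which includes both 0 and the size seen for Kdr.

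In paw, Aplnr had 12.1, 16.5 and 7.51 CPM in female PRL libraries, against 10.1, 10.5 and 5.21 in female Veh libraries, which overlap. In males it had 14.0, 14.99 and 17.9 CPM with PRL, against 9.69, 10.6 and 6.28 with Veh, which do not. Aplnr rose in paw by 0.66 ± 0.22 over both sexes (1.58-fold, adjusted p = 0.0479), but this call held in 1 of 12 fits that left out a library. It was kept without Female paw PRL replicate 3 and was lost without each of the others, with 0.51 and an adjusted p of 0.11 without Female paw PRL replicate 2 as the weakest. Apln in paw had 12.0, 6.85 and 6.01 CPM in female PRL libraries, against 7.23, 5.46 and 11.2 in female Veh libraries, with no separation. In males, 6.07, 9.17 and 11.4 CPM with PRL stood against 3.25, 6.55 and 4.08 with Veh, where PRL replicate 1 fell within the Veh range. The change of Apln was 0.06 ± 0.35 in females (adjusted p = 0.946), 0.99 ± 0.37 in males (adjusted p = 0.0784) and 0.53 ± 0.26 over both sexes (adjusted p = 0.16), and female minus male was -0.93 ± 0.51 (adjusted p = 0.452).

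**Figure D3:**
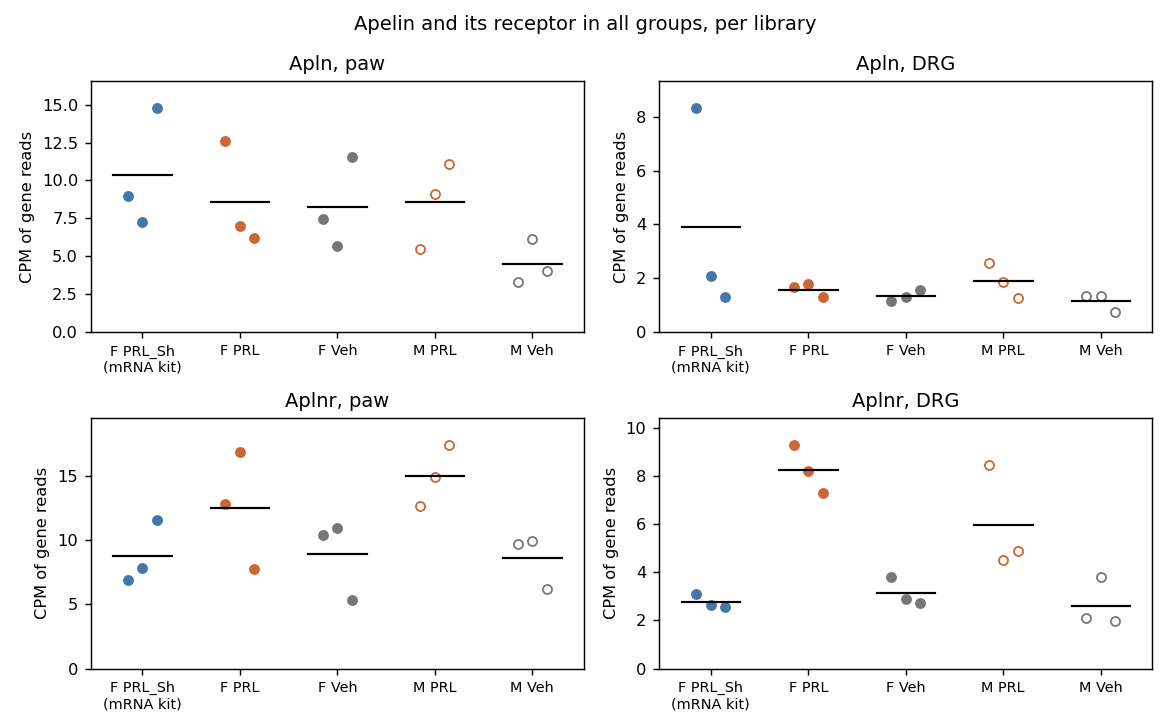
Apln (top) and Aplnr (bottom) in paw (left) and DRG (right) in every library, in CPM of gene reads without further scaling; bars are means of 3 libraries, and the PRL_Sh libraries come from another kit. In DRG the PRL libraries of Aplnr stand above Veh in both sexes and above PRL_Sh, and 1 PRL_Sh library of Apln lies at 8.34 CPM.

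The genes whose pattern over the 12 rRNA-depleted DRG libraries was most like that of Aplnr, by root mean square distance of centred log2 CPM among 13468 genes, were Col3a1 (0.26), Col1a1 (0.28) and Lum (0.29), which encode fibrillar collagens and a matrix proteoglycan. The same measure of Aplnr against a flat line was 0.72. Col3a1 had 1259, 1631 and 1122 CPM in female PRL DRG against 782, 507 and 427 in female Veh DRG. For Apln in DRG the nearest were Dnaic2 (0.20), Sh2d4a (0.21) and A630089N07Rik (0.22), and Apln's own distance from a flat line was 0.37. In paw, among 13307 genes, Sept4 (0.20), Mamstr (0.23) and Fam111a (0.23) were nearest to Aplnr, whose own value was 0.52, and Lrp11 (0.31), Zfp418 (0.34) and Gch1 (0.35) were nearest to Apln, whose own value was 0.55. These distances describe likeness over libraries that share their groups.

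Set side by side, the response to prolactin was larger in paw than in DRG for 2 of the 10 genes and smaller for 0, by a test of paw minus DRG in the fit over 24 libraries, where 9.8% of 15949 genes were called larger, 5.13% smaller and 14.9% in either direction. The difference was 0.55 ± 0.14 for Vwf (adjusted p = 0.0121). For Flt1 it was 0.32 ± 0.11 (adjusted p = 0.048), a call that held in 9 of 24 fits that left out a library, with an adjusted p of 0.0883 without Female DRG Veh replicate 3 as the highest. It was kept without Female DRG PRL replicates 1 or 3, Female DRG Veh replicate 2, Female paw PRL replicate 3, Female paw Veh replicate 1, Male DRG PRL replicate 1, Male DRG Veh replicate 2, Male paw PRL replicate 2 or Male paw Veh replicate 2, and lost without each of the others. Aplnr pointed the other way, with the larger change in DRG, but its difference of -0.62 ± 0.32 was not called (adjusted p = 0.209), nor was that of Kdr at -0.13 ± 0.13 (adjusted p = 0.563) or Vegfa at 0.31 ± 0.13 (adjusted p = 0.134).

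**Figure D4:**
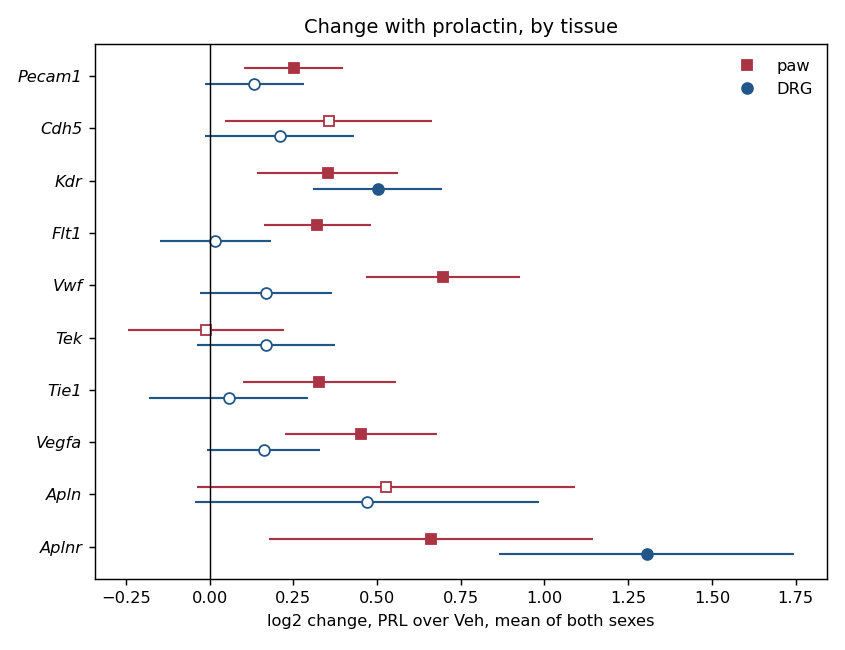
Log2 change of each gene, PRL over Veh averaged over both sexes, in paw (squares) and DRG (circles), with 95% intervals of the edgeR fits; filled symbols have an adjusted p under 0.05. In paw 7 genes are filled, in DRG Kdr and Aplnr, and the paw and DRG intervals of Vwf do not meet.

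Other genes of endothelium and its pathways were counted in the same way. Over all genes tested, 14.9% were called higher and 10% lower in paw, and 2.14% higher and 1.47% lower in DRG. These shares stand beside every list count over both sexes below, and no list was tested as a set. Of 22 other endothelial genes, 7 were called higher in paw and 0 lower, with a median log2 change of 0.30 and 21 above 0. The 4 with the smallest p were Cd34 (0.62), Cd93 (0.54), Plvap (0.46), a protein of the diaphragms in fenestrated capillaries, and Mmrn2 (0.37), a matrix partner of Cd93 and Clec14a, and each kept its call in all 12 fits that left out a library. In DRG 3 of the 22 were called higher and 0 lower, with a median of 0.22 and 21 above 0: Clec14a (0.80, kept in 8 of 12 such fits), Egfl7 (0.25, kept in 5) and Cd93 (0.41, kept in 3). The sum of the 22 was 792 to 1009 CPM of gene reads in female PRL paw and 594 to 762 in female Veh paw, and 832 to 1011 in male PRL paw and 638 to 804 in male Veh paw.

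Of 9 further ligands and co-receptors of the VEGF and angiopoietin families, 6 were called higher in paw and 0 lower, with a median of 0.60. The co-receptors Nrp1 (0.66 ± 0.08, adjusted p = 0.000135) and Nrp2 (0.63 ± 0.09, adjusted p = 0.000357) had the smallest p, followed by Angpt2 (0.74 ± 0.14, adjusted p = 0.00325), a ligand of Tek released by activated endothelium. By size of change the placental growth factor Pgf, named after its values were seen, stood highest (0.81 ± 0.27, adjusted p = 0.0443). Whether the call of Pgf held with libraries left out was not examined. Vegfc, the lymphatic growth factor, also rose (0.60 ± 0.19, adjusted p = 0.0391), kept in 4 of 12 fits that left out a library. In DRG 1 of the 9 was called higher and 1 lower, with a median of -0.01: Nrp2 (0.21) and Angpt2 (-0.36, kept in 4 of 12 fits). Angpt2 was thus higher in paw and lower in DRG with prolactin.

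Of 10 genes of Notch signalling in vessels, 1 was called higher and 2 lower in paw, namely Dll4, the ligand of tip cells (0.44, kept in 1 of 12 fits), Unc5b (-0.40) and Jag2 (-0.31), with a median of -0.14. In DRG 1 was called higher and 0 lower, Jag1 (0.34), with a median of 0.00. Of 4 lymphatic genes, Prox1 (0.54) and Pdpn (0.77, kept in 6 of 12 fits) were called higher in paw and Lyve1, which macrophages of skin also carry, was called lower (-1.04), and in DRG 0 were called, nor had any an unadjusted p under 0.05. Of 11 pericyte and smooth muscle genes, 1 was called higher and 0 lower in paw, Pdgfb (0.36), which endothelium makes to attract pericytes, with a median of -0.23 for the list. In DRG it was Pdgfrb (0.25, kept in 4 of 12 fits), 1 of 11 called higher and 0 lower, with a median of 0.27.

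Of 8 angiogenesis inhibitors, 2 were called higher in paw and 0 lower, with a median of 0.23: Vash1, an endothelial inhibitor induced by VEGF-A (1.32 ± 0.15, adjusted p = 8.51e-05), and Col18a1 (0.34, kept in 3 of 12 fits). In DRG 0 of 8 were called by edgeR, 2 had an unadjusted p under 0.05, and the median was 0.21. Among genes of the hypoxia pathway, which controls Vegfa in many tissues, 3 of 15 were called higher in paw and 0 lower, with a median of 0.08: Egln3 (1.05), Ldha (0.26, kept in 6 of 12 fits) and Ankrd37 (0.67, kept in 2). In DRG, of 14 tested, Hif3a was called lower (-2.02 ± 0.21, adjusted p = 0.000282) and Hif1a higher (0.13, kept in 4 of 12 fits), with a median of 0.05.

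**Figure D5:**
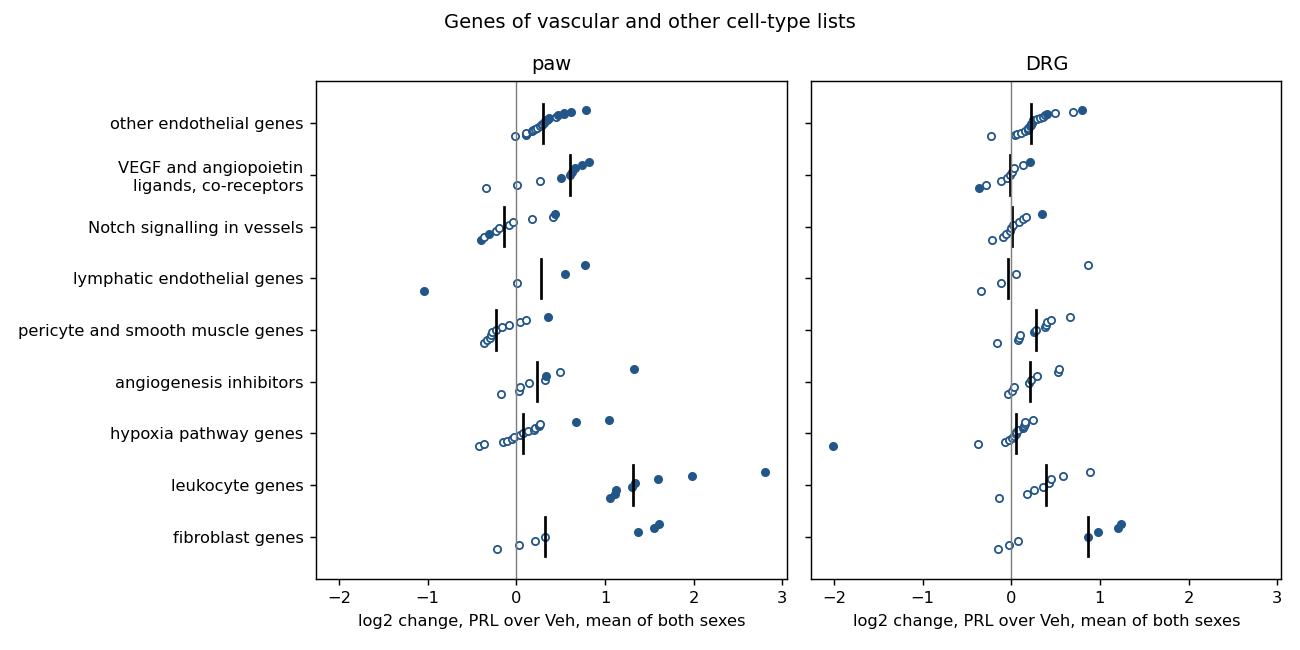
Log2 change, PRL over Veh averaged over both sexes, of the tested genes of 9 lists in paw (left) and DRG (right); each point is a gene, filled where the adjusted p is under 0.05, and black bars are list medians. All 8 leukocyte genes are filled in paw and 0 in DRG, while the VEGF and angiopoietin list has its median at 0.60 in paw and -0.01 in DRG.

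Markers of other cells moved in the same libraries. In paw all 8 leukocyte genes were called higher, with a median of 1.32, and their sum was 719 to 1058 CPM in female PRL paw and 272 to 354 in female Veh paw, and 739 to 931 in male PRL paw and 299 to 468 in male Veh paw. No leukocyte marker was at 0 in any group. Pecam1 is carried by leukocytes, and the part of these cells in its change, or in those of the other genes, was not tested. In DRG 0 of the 8 leukocyte genes were called by edgeR and 3 had an unadjusted p under 0.05, with a median of 0.39. Of 7 fibroblast genes, 4 were called higher in DRG and 0 lower, with a median of 0.86, and their sum was 4913 to 6887 CPM in female PRL DRG and 2915 to 4265 in female Veh DRG, and 4090 to 4891 in male PRL DRG and 2284 to 3172 in male Veh DRG. In paw 3 of the 7 were called higher and 0 lower, with a median of 0.33: Col1a1 (1.61), Col3a1 (1.55) and Col1a2 (1.37). Their list summed to 16740 to 24250 CPM in female PRL paw and 6537 to 8586 in female Veh paw. In male paw the sum was 18807 to 30160 with PRL and 9671 to 15613 with Veh. By the test of paw minus DRG, 0 of the 7 were called with a larger response in paw and 1 with a smaller one. The 4 called in DRG were Col1a1, Col1a2, Col3a1 and Lum, while Pdgfra (-0.02), Dcn (0.07) and Fbln1 (-0.15) were not called there. The part of fibroblasts in the change of Aplnr, or in those of the other genes, was not tested. Of 5 Schwann cell genes, 2 were called higher in DRG (median 0.31) and 0 in paw (median -0.03).

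Skeletal muscle genes, of which Pvalb is also made by neurons of DRG, varied between libraries of a group, and their sum was 203 to 5069 CPM in female PRL DRG and 109 to 379 in female Veh DRG, and 744 to 3080 in male PRL DRG and 95.02 to 1778 in male Veh DRG. In paw the sum was 517 to 10574 CPM in female PRL libraries and 2939 to 10266 in female Veh libraries, and 10704 to 21023 in male PRL libraries and 3037 to 12977 in male Veh libraries. The median change in paw was -0.56 in females, with 0 of 10 above 0, and 0.82 in males, with 10 of 10 above 0, and 0 were called in either sex. Of the 10 muscle genes, 0 were called in paw over both sexes, with a median of 0.10 and 0 at an unadjusted p under 0.05, and 0 in DRG, with a median of 2.22 and 9 at an unadjusted p under 0.05. With the mean log2 CPM of the muscle genes as a covariate, Aplnr in DRG over both sexes was 1.28 (adjusted p = 0.0246). Of the platelet genes, which matter since platelets hold Vwf protein, 0 of 4 tested were called in DRG (median 0.38) and Gp1bb was called lower in paw (-0.56, median of the 4 tested -0.03). Of 7 red cell genes, 4 were listed at 0 in every group, and 0 of those tested were called in either tissue. Of keratinocyte genes 2 of 6 were called lower in paw (median -0.30) and 0 in DRG (median -0.36), of adipocyte genes 2 of 5 lower in paw (median -0.81) and 0 of 4 in DRG (median -0.21), and of sensory neuron genes 1 of 3 lower in paw (median -0.49) and 0 of 6 in DRG (median -0.12). Some of the platelet, red cell, keratinocyte, adipocyte and sensory neuron lists had 0 genes called by edgeR in a tissue. There, genes with an unadjusted p under 0.05 numbered 2 among sensory neuron genes in DRG, 1 among platelet genes in DRG and 0 otherwise.

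The PRL_Sh libraries of females were set against the female PRL libraries. They differ from them in the library kit as well as in the label, so kit and treatment cannot be told apart, and 61.6% of 14985 genes were called in DRG and 58.5% of 14800 in paw. In DRG 6 of the 10 genes were called lower in PRL_Sh (32.3% of genes) and 0 higher (29.3%), and in paw 3 were called lower (29% of genes) and 0 higher (29.4%). Aplnr in DRG had 3.11, 2.64 and 2.56 CPM of gene reads in PRL_Sh libraries, against 9.30, 8.21 and 7.27 in PRL libraries, with 3.78, 2.87 and 2.74 in Veh libraries. The PRL_Sh libraries lay below all PRL libraries, with a difference of -1.81 ± 0.17 (adjusted p = 6.16e-05). The other 5 called lower in DRG were Cdh5 (-0.78 ± 0.12), Flt1 (-0.68 ± 0.15), Kdr (-0.55 ± 0.14), Tek (-0.49 ± 0.13) and Pecam1 (-0.34 ± 0.11). The call of Tek was lost without Female DRG PRL replicate 1 (-0.41, adjusted p = 0.0575), and that of Pecam1 without PRL replicate 1 (-0.30, 0.118), PRL replicate 3 (-0.29, 0.11), PRL_Sh replicate 2 (-0.31, 0.082) or PRL_Sh replicate 3 (-0.26, 0.0876).

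In paw, Vwf had 25.2, 19.6 and 31.9 CPM of gene reads in PRL_Sh libraries, against 120.0, 109 and 114 in PRL libraries, with 72.6, 71.1 and 56.9 in Veh libraries. The PRL_Sh libraries lay below every rRNA-depleted female library, with a difference from PRL of -2.17 ± 0.19 (adjusted p = 0.000162). Kdr (-0.89 ± 0.24, adjusted p = 0.0149) and Flt1 (-0.79 ± 0.20, adjusted p = 0.0125) were also lower. In DRG, Vwf had 119, 100.7 and 69.1 CPM in PRL_Sh libraries against 84.2, 86.1 and 91.6 in PRL libraries, and its difference was -0.09 ± 0.17 (adjusted p = 0.649). Apln in DRG had 204, 46 and 34 reads in PRL_Sh libraries, which is 8.34, 2.09 and 1.28 CPM, against 1.65, 1.78 and 1.28 CPM in PRL libraries. The difference of 1.06 ± 0.69 (adjusted p = 0.215) was carried by PRL_Sh replicate 1 and was -0.13 without it. Muscle genes summed to 21345 to 38164 CPM in PRL_Sh paw and 517 to 10574 in female PRL paw, and leukocyte genes to 143 to 167 and 719 to 1058, and their part in these differences was not tested.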

How the data were processed

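RNA was measured by RNA-seq in 30 libraries, 10 groups of 3, grouped by their labels. Per the labels' protocols, 500 ng of RNA was depleted of rRNA (24 libraries) or selected for mRNA (the 6 PRL_Sh libraries), with stranded kits, and read as single reads of 50 nt. The submitters' processing notes name bcl2fastq, TopHat2, HTSeq and mm9; for versions, counting mode and strand setting, nothing is stated in these sources. The deposited values are raw counts per gene, and 5 summary lines per library were left out of totals and tests. The share of reads assigned to genes was 13.6% to 28.1% in rRNA-depleted and 42.2% to 56.8% in PRL_Sh libraries.

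Counts were tested in edgeR 4.0.16 (R 4.3.3; filterByExpr, TMM, quasi-likelihood F test, Benjamini-Hochberg over all genes tested, threshold 0.05). Each tissue's 12 rRNA-depleted libraries were fitted together, PRL_Sh with PRL in fits of 6, and paw minus DRG in a fit of 24. CPM are TMM-scaled within a fit unless given as CPM of gene reads. On simulated counts with 200 genes changed 2-fold, the fit recovered 84.5% of them in female DRG and 71% in female paw. It recovered 75.5% for PRL_Sh in DRG, 45.5% for PRL_Sh in paw and 90% for the paw minus DRG level in Veh. In these 5 simulations 3.43% to 5.63% of calls were false. The paw minus DRG response to prolactin, the male contrasts, the averages over both sexes and female minus male were not simulated. The changed genes were drawn only from those above a floor in mean count. Recovery was thus not measured for smaller changes or for genes as low as Apln in the fit of DRG libraries. Alternatives were a replicate block, a muscle covariate, DESeq2 1.42.0, scaling by RLE, a filter of 1 CPM in 3 libraries or none, the compared groups alone, and each library left out. The 10 genes and the lists were chosen with earlier results of these data known. All 10 genes passed the filter on low counts in each fit. Named genes were all 10 members, of each list up to 4 called genes by p in a comparison (at most 2 by smallest p where none was called), the 3 genes nearest to Apln and Aplnr, and markers of other cells. Exon lengths and overlaps came from GENCODE M21, in which no exon of the 10 genes overlaps another gene's, and promoters from RefSeq (GRCm38.p6). No pair of libraries in a group had identical counts or agreed within sampling noise. Series text and labels differ on how many libraries are male; the labels were used.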

Additional observations from a re-analysis of the deposited data

Results flagged for a closer look

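The response to prolactin differed between tissues for 2 of the 10 genes, by the test of paw minus DRG itself (edgeR quasi-likelihood test, adjusted over 15949 genes). Over all genes tested, 14.9% were called in this test, 9.8% with the larger change in paw and 5.13% with the smaller. For Vwf the log2 change was larger in paw by 0.55 (adjusted p = 0.0121), and it was called in all 29 alternatives, from 0.48 to 0.64. For Flt1 the log2 change was larger in paw by 0.32 (adjusted p = 0.048), called in 10 of 29 alternatives, from 0.27 to 0.37.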

How the results depend on the processing

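Over both sexes, Aplnr in DRG was called in all 18 alternatives (1.14 to 1.47, adjusted p at most 0.0246) and Kdr in 17. In paw, Vwf, Flt1 and Vegfa were called in all 18, Kdr in 17, Pecam1 in 16, Tie1 in 7 and Aplnr in 6. DESeq2 called 208 genes in female DRG (main 96), 305 in male DRG (76), 833 over both sexes (530), 1 for female minus male in DRG (0, with 537 at an unadjusted p under 0.05) and 158 in paw (1). Of the 10 genes it called 1 in male DRG (0), 4 in male paw (2), 3 in female paw (1) and 1 for paw minus DRG response (2). The muscle covariate left 36 genes in female DRG, 42 in male DRG and 202 over both sexes, 9 for female minus male in paw, and 0 and 1 of the 10 genes in female DRG and over both sexes. Fitting only the groups compared gave 34 genes in female DRG, 597 in female paw (1111), and 1 of the 10 in male DRG. For paw minus DRG response, RLE scaling, no filter and a block of sex, arm and number each called 1 of the 10. Deviations of same-numbered libraries from their group means had correlations of -0.68 to 0.47. With groups of 3 these correlations cannot decide whether numbers pair libraries. With the replicate block, of the 10 genes 4 were called in male paw, 3 in female paw and 1 in male DRG, and 0 genes for female minus male in paw. Leaving out each library gave these ranges of genes called and of the 10 called: female DRG 20 to 171 and 0 to 1, male DRG 25 to 73 and 0 to 0, both sexes DRG 271 to 992 and 2 to 2, female minus male DRG 0 to 0 and 0 to 0, female paw 579 to 1505 and 1 to 3, male paw 2017 to 2792 and 2 to 2, both sexes paw 2804 to 4368 and 4 to 8, female minus male paw 0 to 6 and 0 to 0, PRL_Sh DRG 8099 to 8966 and 5 to 6, PRL_Sh paw 6986 to 8104 and 3 to 6, paw minus DRG level in Veh 13465 to 13613 and 8 to 9, and paw minus DRG response 2024 to 3032 and 1 to 3. Changes near 0 took either sign. Tek in male paw was 0.000739, and -0.0206 by DESeq2, -0.0198 by RLE scaling, -0.0189 with the compared groups alone, -0.0405 with no filter, -0.000701 with the replicate block and -0.0488 with the muscle covariate, which gave Tek 0.0346 in female paw and Vwf -0.0035 for female minus male in paw. When libraries were left out, the log2 change ran from -0.13 to 0.22 for Tie1 in female DRG, -0.0227 to 0.13 in male DRG and -0.0283 to 0.15 over both sexes, and -0.0284 to 0.0728 for Flt1 in DRG over both sexes. For female minus male in DRG it ran from -0.24 to 0.0169 for Vwf and -0.10 to 0.57 for Aplnr, and in paw from -0.0458 to 0.30 for Vwf. For Tek it ran from -0.11 to 0.10 in female paw, -0.13 to 0.11 in male paw and -0.0759 to 0.0502 over both sexes, and for Apln from -0.31 to 0.39 in female paw. In PRL_Sh DRG it ran from -0.13 to 1.47 for Apln and -0.25 to 0.0936 for Vwf, in PRL_Sh paw from -0.25 to 0.0624 for Vegfa and -0.12 to 0.61 for Apln, and for paw minus DRG response from -0.11 to 0.24 for Apln. The cause of these changes was not tested. Leaving out Male paw Veh replicate 2, chosen after its low share of reads in genes was seen, kept 1 call among the 10 in female paw. The low counts of Apln in DRG limit what can be said of it.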
